A study of Mus musculus with 2 samples.

Results

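The mitochondrial genome transcripts of embryonic mouse midbrain were examined in 2 RNA-seq libraries. The members were the gene entries of the quantification tables whose identifier, with its version removed, lies on chromosome M in GENCODE M21 and whose symbol begins with mt-. They were 37 of the 43346 annotated genes, namely 13 mRNAs, 2 rRNAs and 22 tRNAs, each with 1 transcript, and all 37 were found. Both libraries form 1 group: midbrain of healthy B6NCrl embryos at E12.5 (12.5 days), both sexes pooled, with no treatment named. Replicate 1 came from a pool of 120 embryos and replicate 2 from a pool of 88 embryos. Each library was made from 10 ng of mirVana-extracted RNA above 200 nucleotides, with spike-in RNAs, and the protocol field links a manual for a SMARTer Ultra Low kit, a type that primes from poly(A) tails. The labels name no contrast between conditions, so the values are compared between RNA classes, between genes and between the 2 pools.

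The mitochondrial genome is a small circular DNA that each cell carries in many copies. Its strands are transcribed as long precursors, and the tRNAs that lie between most of the longer genes mark the places at which the precursors are cut. The mRNAs encode core subunits of the respiratory chain and of ATP synthase, whose other subunits are encoded in the nucleus, and the rRNAs and tRNAs serve the ribosomes that translate those mRNAs. Because the members come from shared precursors, they are not independent of each other. Copies of mitochondrial DNA have also been inserted into nuclear chromosomes during evolution, and some are annotated there as pseudogenes.

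Replicate 1 held 28212923 estimated counts on genes and replicate 2 held 36082643, and spike-ins took 4.14% and 3.48% of all counts in replicates 1 and 2. The tissue label was checked with 5 midbrain genes, all at 1 TPM or more (TPM is the deposited abundance, scaled to effective length), and Otx2, the highest, had 146.6 TPM in replicate 1 and 141.8 TPM in replicate 2. The other midbrain genes were lower, from En2 with 1.20 TPM in replicate 1 and 1.73 TPM in replicate 2 to Dmbx1 with 14.7 and 15.1 TPM. All 6 hindbrain genes examined lay under 1 TPM, and Hoxb4 was listed at 0. No forebrain genes were examined. In bulk tissue, fewer cells of a type and less RNA per cell cannot be told apart.

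The 22 tRNA genes had no counts in either library. They carry amino acids to the mitochondrial ribosome, 1 gene for each amino acid except leucine (mt-Tl1, mt-Tl2) and serine (mt-Ts1, mt-Ts2). Of the 22, 14 lie in the annotation on the heavy-strand transcript (mt-Tf, mt-Tv, mt-Tl1, mt-Ti, mt-Tm, mt-Tw, mt-Td, mt-Tk, mt-Tg, mt-Tr, mt-Th, mt-Ts2, mt-Tl2 and mt-Tt). The other 8 are mt-Tq, mt-Ta, mt-Tn, mt-Tc, mt-Ty, mt-Ts1, mt-Te and mt-Tp, on the opposite strand. Their lengths run from 59 to 75 bases. The deposited effective length, the number of places at which a read can start in a transcript, was the length minus 99 bases, and it was 0 for every tRNA. The same held for every feature of up to 99 bases: 28403 features, of which 2218 were annotated genes, had an effective length of 0 and no counts in either library. A count of 0 therefore sets no upper limit on a tRNA, and its level was not measurable in these tables. The shortest and the longest tRNA are shown to make the length plain, from the GENCODE M21 transcripts (mm10, plus strand), with no capitals.
mt-Ts2 (chrM:11613-11671): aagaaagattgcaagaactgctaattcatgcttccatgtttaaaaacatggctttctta
mt-Tl1 (chrM:2676-2750): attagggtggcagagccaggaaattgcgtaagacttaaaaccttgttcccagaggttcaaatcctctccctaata

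The 13 mRNAs held most of the mitochondrial counts. The mRNAs took 0.869% of gene counts in replicate 1 (95% exact Clopper-Pearson interval 0.865% to 0.872%) and 0.699% in replicate 2 (0.696% to 0.702%). The 2 rRNAs took 0.339% in replicate 1 (0.337% to 0.341%) and 0.280% in replicate 2 (0.278% to 0.281%). These intervals cover counting error only. The mRNA and rRNA counts kept nearly the same proportion in both pools, since rRNA made up 28.1% of the mitochondrial counts in replicate 1 and 28.6% in replicate 2. Together the mitochondrial genes took 1.21% of gene counts in replicate 1 (1.20% to 1.21%) and 0.979% in replicate 2 (0.975% to 0.982%).

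Among the rRNAs the large subunit RNA stood above the small subunit RNA in both libraries. The large rRNA, mt-Rnr2 (ENSMUSG00000064339, chrM:1094-2675, plus strand), had 3142 TPM in replicate 1 and 2634 TPM in replicate 2. The small rRNA, mt-Rnr1 (ENSMUSG00000064337, chrM:70-1024, plus strand), had 859.7 TPM in replicate 1 and 698.1 TPM in replicate 2. The ratio of mt-Rnr2 to mt-Rnr1, whose genes are separated only by mt-Tv on the same strand, was 3.65 in replicate 1 and 3.77 in replicate 2 on the TPM scale. Because TPM is scaled to length, levels of different genes can be set side by side. How far priming at poly(A) tails sets the level of an RNA with a short tail or none was not tested.

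The ATP synthase mRNAs had the highest deposited levels of all mitochondrial genes. mt-Atp6 (chrM:7927-8607), a membrane subunit of the proton channel, had 5491 TPM in replicate 1 and 4838 TPM in replicate 2. mt-Atp8 (chrM:7766-7969), a small subunit read from the same mRNA, had 5113 TPM in replicate 1 and 4534 TPM in replicate 2. The ratio of mt-Atp6 to mt-Atp8 was 1.07 in both replicates, and the ranges of the 2 genes overlapped. These genes overlap by 43 bases, shown in capitals at the end of mt-Atp8 (bases 132 to 204 of the gene, chrM:7897-7969, mm10, plus strand, GENCODE M21 transcript).
mt-Atp8: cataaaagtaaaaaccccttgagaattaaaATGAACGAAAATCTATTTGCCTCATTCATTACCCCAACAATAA
The overlap is shorter than 100 bases, so no 100-base window lies inside both genes, and the effective length of mt-Atp8 was only 105 bases.

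The complex III mRNA and the complex IV mRNAs had lower deposited levels than these. mt-Cytb (chrM:14145-15288), the cytochrome b of complex III, had 2020.1 TPM in replicate 1 and 1623 TPM in replicate 2. mt-Co1 (chrM:5328-6872), the catalytic subunit of cytochrome c oxidase, had 1544 TPM in replicate 1 and 1127 TPM in replicate 2. mt-Co2 (chrM:7013-7696), the subunit that takes electrons from cytochrome c, had 1430.1 TPM in replicate 1 and 1099 TPM in replicate 2. On the deposited scale the oxidase genes kept the same order in both libraries, and mt-Co3 was the one that differed most between them. That order was reversed in both libraries on posterior means and with the nuclear copies added, scales that are given below. mt-Co3 (chrM:8607-9390), the remaining mitochondrial subunit of the oxidase, had 1173 TPM in replicate 1 and 560.4 TPM in replicate 2.

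The 7 complex I mRNAs, which encode membrane subunits of NADH dehydrogenase, spread over the widest range. mt-Nd1 (chrM:2751-3707) was the highest, with 1843 TPM in replicate 1 and 1709.8 TPM in replicate 2. mt-Nd4 (chrM:10167-11544) had 925.8 TPM in replicate 1 and 773.3 TPM in replicate 2. mt-Nd2 (chrM:3914-4951) had 565.9 TPM in replicate 1 and 465.5 TPM in replicate 2. These genes lie on the heavy-strand transcript with 9 other mRNAs, whereas mt-Nd6 is the only mRNA on the opposite strand. mt-Nd6 (chrM:13552-14070, minus strand) had 418.6 TPM in replicate 1 and 357.1 TPM in replicate 2. mt-Nd5 (chrM:11742-13565), which faces mt-Nd6 with an overlap of 14 bases, had 329.0 TPM in replicate 1 and 294.1 TPM in replicate 2. The ratio of mt-Nd6 to mt-Nd5 was 1.27 in replicate 1 and 1.21 in replicate 2. Whether the counting used strand is not stated in the sources used here, so reads from mt-Nd6 and reads antisense to it cannot be told apart. On the deposited scale the lowest complex I genes were also the shortest, an order that did not hold with the nuclear copies added. mt-Nd3 (chrM:9459-9806) had 262.6 TPM in replicate 1 and 259.8 TPM in replicate 2. mt-Nd4l (chrM:9877-10173) had 73.1 TPM in replicate 1 and was listed at 0 in replicate 2. The end of mt-Nd4l overlaps mt-Nd4 by 7 bases, and its last 40 bases (bases 258 to 297, chrM:10134-10173, mm10, plus strand, GENCODE M21 transcript) are shown with the shared bases in capitals.
mt-Nd4l: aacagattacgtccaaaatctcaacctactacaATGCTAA

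**Figure D1:**
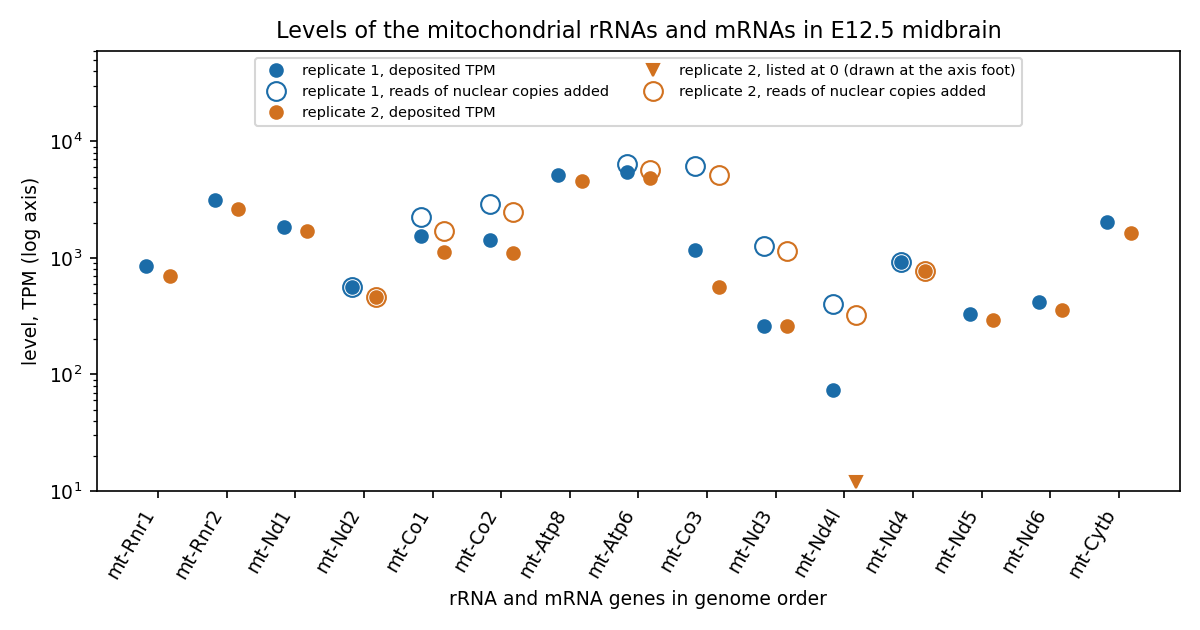
Level in TPM (log axis) of the 15 mitochondrial rRNA and mRNA genes in genome order, for replicate 1 (blue, left) and replicate 2 (orange, right). Filled points are deposited values, and open circles add the counts of nuclear copies to the 8 genes that share windows with them; the deposited mt-Nd4l value of replicate 2 is 0 and is drawn as a triangle at the foot of the axis.

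In the plot of levels by gene, the deposited values of the 15 longer genes fell in an order that the replicate ranges resolve only in part. The ranges of mt-Atp6 and mt-Atp8 overlapped, and both lay above mt-Rnr2. Next came mt-Cytb and mt-Nd1, whose ranges overlapped. Then mt-Co1, mt-Co2, mt-Co3, mt-Nd4 and mt-Rnr1 followed, each with a range that overlapped the next. Below these, mt-Nd2, mt-Nd6, mt-Nd5, mt-Nd3 and mt-Nd4l had ranges that were separate from each other. With 2 libraries the SD is a rough measure: mt-Atp6 averaged 5164 ± 461.6 TPM, mt-Rnr2 averaged 2888 ± 358.9 TPM and mt-Co3 averaged 866.9 ± 433.5 TPM (SD, n = 2 each).

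The genes are packed closely, which bears on how many reads can be assigned to 1 gene. Of the 15323 windows of 100 bases in the annotated span of chromosome M, 12455 (81.3%) lie wholly inside 1 of the 15 longer genes. The others span a tRNA, a gene boundary or both. Complete stop codons end 10 of the 13 mRNA genes, while mt-Co3, mt-Nd4 and mt-Cytb end in a single T. In such genes the stop codon is known to be completed by the poly(A) tail.

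Nuclear copies share sequence with 8 of the 15 longer genes. A search of the annotated transcripts in the tables for windows of 100 bases identical to a mitochondrial mRNA or rRNA found 10 nuclear genes, all annotated as unprocessed pseudogenes. The window length was taken from the deduction of 99 bases in the effective lengths, since the read length is not given in the sources used here. The copies of mt-Co1 (Gm29216), mt-Co2 (Gm28661), mt-Atp6 (Gm10925), mt-Co3 (Gm28437), mt-Nd3 (Gm28438), mt-Nd4l (Gm10222) and mt-Nd4 (Gm28439) lie in 1 block on chromosome 1, from Gm28439 (chr1:24611535-24612410) to Gm29216 (chr1:24615706-24616197), all on the minus strand. The other 3, on chromosome 2, are Gm13340 (mt-Co1), Gm13341 (mt-Co2) and Gm13339 (mt-Nd2). The shared windows covered 99.9% of those of mt-Co3 (684 of 685), 99.5% for mt-Co2 and for mt-Atp6, 98.5% for mt-Nd4l and 97.6% for mt-Nd3. They covered 60.8% for mt-Nd4, 30.8% for mt-Co1 and 3.19% for mt-Nd2. No annotated copy shared a window with mt-Rnr1, mt-Rnr2, mt-Nd1, mt-Atp8, mt-Nd5, mt-Nd6 or mt-Cytb.

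Along their full annotated length, 5 of the chromosome 1 copies matched the mitochondrial gene at every base. They are Gm28437 (783 bases), Gm28661 (681 bases), Gm10925 (678 bases), Gm10222 (294 bases) and Gm28439 (876 bases). For such a copy no 100-base read inside its annotated transcript can be placed by sequence. The mt-Co3 pair shows how little distinguishes the members: the last 60 bases of the mitochondrial gene (chrM:9331-9390, mm10, plus strand) differ from the annotated end of Gm28437 (chr1:24613189-24613247, mm10, minus strand) only by the final base, in capitals, which the copy's annotation does not include. Both come from GENCODE M21 transcripts.
mt-Co3: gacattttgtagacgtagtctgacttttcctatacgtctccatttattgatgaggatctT
Gm28437: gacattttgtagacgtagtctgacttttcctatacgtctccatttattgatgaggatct
The mt-Nd3 copy matched at 344 of 345 aligned bases. Its difference is T3C, with the mitochondrial base first and positions counted from 1 at the 5′ end of mt-Nd3, shown in capitals in the first 60 bases of mt-Nd3 (chrM:9459-9518, plus strand) and of Gm28438 (chr1:24613060-24613119, minus strand).
mt-Nd3: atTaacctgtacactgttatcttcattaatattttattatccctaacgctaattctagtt
Gm28438: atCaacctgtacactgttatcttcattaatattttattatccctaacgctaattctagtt
Gm29216 corresponds to mt-Co1 from base 1054 on and matched at 486 of 492 bases. Its differences, T1056A, C1057T, A1059G, A1060G, C1062A and A1066T, counted from the 5′ end of mt-Co1, all lie near the copy's 5′ end. They are in capitals in the 60 bases from mt-Co1 base 1054 (chrM:6381-6440, plus strand) and in the first 60 bases of Gm29216 (chr1:24616138-24616197, minus strand).
mt-Co1: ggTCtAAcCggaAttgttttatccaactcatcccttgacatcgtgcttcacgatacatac
Gm29216: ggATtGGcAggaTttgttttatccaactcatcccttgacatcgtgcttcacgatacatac
The chromosome 2 copies were less alike. Gm13340 matched mt-Co1 at 97.6% of bases, Gm13341 matched mt-Co2 at 97.6% and Gm13339 matched mt-Nd2 at 96.7%.

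The posterior SD of the count, deposited by the authors for each gene, was 0 for every longer gene without such a copy. It measures how uncertain the division of reads among similar transcripts is under the model that divided them. Error of that model is not covered, so a small SD does not show that a division is right. The posterior SD was 0 in both libraries for mt-Rnr1, mt-Rnr2, mt-Nd1, mt-Atp8, mt-Nd5, mt-Nd6 and mt-Cytb. For mt-Nd2 it was 0.009% of the count in replicate 1 and 0.014% in replicate 2, for mt-Nd4 it was 0.014% in both, and for mt-Co1 it was 0.259% in replicate 1 and 0.266% in replicate 2. The 5 genes with nearly all windows shared had SDs of a different order. mt-Co3 had 14240 counts with an SD of 18667 in replicate 1 (131%) and 8599 counts with an SD of 19990 in replicate 2 (232%). Among all 43346 genes, mt-Co3 had the highest posterior SD in each library, equal in size to that of its copy Gm28437. mt-Nd4l had 256.3 counts with an SD of 120.3 in replicate 1 (46.9%) and 0 counts with an SD of 89.6 in replicate 2. mt-Co2 had an SD of 33.8% of its count in replicate 1 and 40.1% in replicate 2. mt-Nd3 had 24.9% in replicate 1 and 17.9% in replicate 2, and mt-Atp6 had 17.2% in replicate 1 and 16.01% in replicate 2.

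An SD over 10% of the count was thus found for 5 of the 15 longer genes in replicate 1 and for 4 of the 14 with counts in replicate 2. Among the 10721 genes with at least as many counts as mt-Nd4l in replicate 1, 0.634% had an SD over 10% of the count, and 68.8% had an SD of 0. Among the 6133 genes with at least as many counts as mt-Nd3 in replicate 2, 0.147% had an SD over 10% and 66.6% had an SD of 0. Of the 10 largest posterior SDs in each library, 6 belonged to mitochondrial genes or their copies. They are those of mt-Co3, mt-Atp6 and mt-Co2 and of Gm28437, Gm10925 and Gm28661, and each gene had nearly the same SD as its copy. This ranking is of SDs in counts, not relative to the count.

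**Figure D2:**
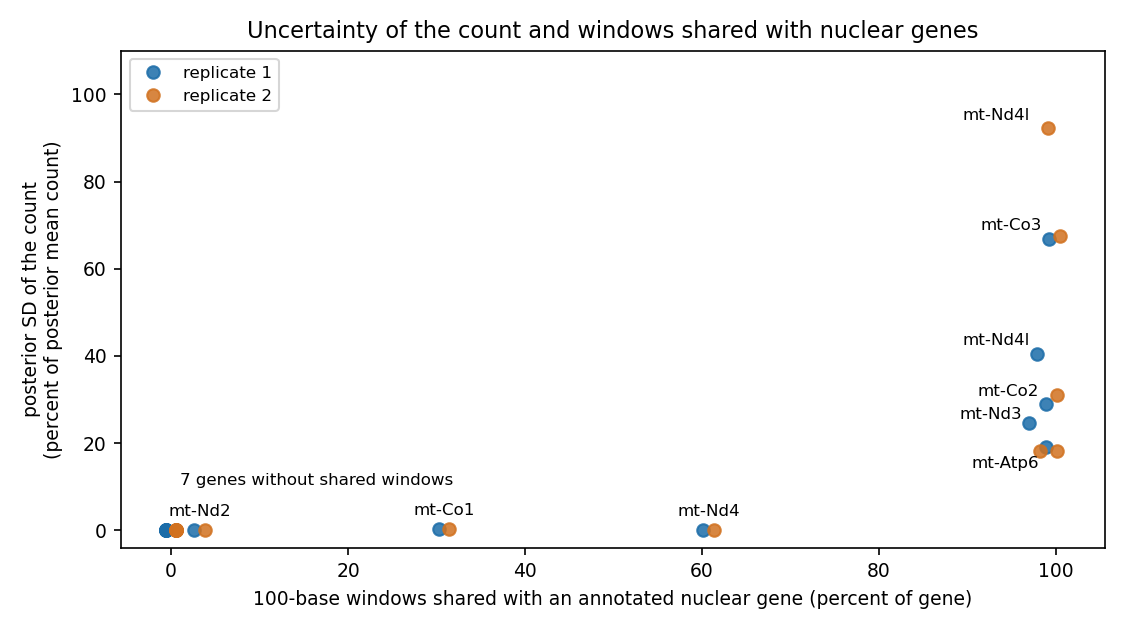
Posterior SD of the count, as a percent of the posterior mean count, against the percent of a gene's 100-base windows that are shared with an annotated nuclear gene, for the 15 longer mitochondrial genes in replicate 1 (blue) and replicate 2 (orange), drawn slightly left and right of the true position. The 10 genes with at most 60.8% of windows shared lie near 0, and the 5 genes with at least 97.6% shared lie between 18.1% (mt-Atp6 and mt-Nd3 in replicate 2) and 92.2% (mt-Nd4l in replicate 2).

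In the plot of posterior SD against shared windows, the percent is taken of the posterior mean count, so that mt-Nd4l can be shown in replicate 2, where its estimated count was 0. The posterior mean differed from the estimated count in the same genes. For mt-Co3 the posterior mean was 27887 counts in replicate 1 and 29596 counts in replicate 2, which is 1.96 times the estimated count in replicate 1 and 3.44 times in replicate 2. For mt-Nd4l it was 296.7 counts in replicate 1 and 97.1 counts in replicate 2. On the posterior mean scale mt-Co3 had 2225 TPM in replicate 1 and 1879.5 TPM in replicate 2, and it moved to rank 4 of the 15 genes from rank 8 on the deposited scale. The deposited TPM lay above the gene's own deposited interval for 9 of the 15 genes in each library, so that interval is not centred on the deposited TPM. In replicate 2 mt-Nd4l, listed at 0, lay below its interval. The share of all genes outside their interval was not computed, so this is not a trait shown for mitochondrial genes alone.

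The proportion in which the reads of a pair were divided differed from gene to gene. The shares are given of the summed count of the mitochondrial gene and its chromosome 1 copy. mt-Nd4 took 100% of its pair in both libraries, and Gm28439 was listed at 0. mt-Atp6 took 85.9% of its pair in replicate 1 and 85.5% in replicate 2. These pairs kept most reads on the mitochondrial gene, as did mt-Co1, with 69.3% in replicate 1 and 66.8% in replicate 2. Only 26.3% of the windows of mt-Co1 are shared with Gm29216, so most of its windows could not go to that copy. Per effective length the copy stood higher than mt-Co1. Gm29216 had 2521 TPM in replicate 1 and 2065 TPM in replicate 2, against 1544 TPM and 1127 TPM for mt-Co1. mt-Co2 took 49.2% of its pair in replicate 1 and 44.1% in replicate 2. mt-Nd3 took 20.9% in replicate 1 and 22.7% in replicate 2. On estimated counts, most reads of the last 2 pairs were placed on the copy. For mt-Co2 this did not hold on posterior means, where its share was 57.3% in replicate 1 and 57.0% in replicate 2. The posterior SD of that share was 16.6 percentage points in replicate 1 and 17.7 in replicate 2. mt-Co3 took 19.2% in replicate 1 and 10.8% in replicate 2, so that Gm28437 had 4935 TPM in replicate 1 and 4625 TPM in replicate 2. mt-Nd4l took 18.3% in replicate 1 and 0% in replicate 2, and Gm10222 had 331.9 TPM in replicate 1 and 332.2 TPM in replicate 2. On posterior means the mt-Co3 share was nearly the same in both pools, 37.7% in replicate 1 and 37.2% in replicate 2. The copies on chromosome 2 held at most 13.6 counts in replicate 1 and 11.99 counts in replicate 2.

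**Figure D3:**
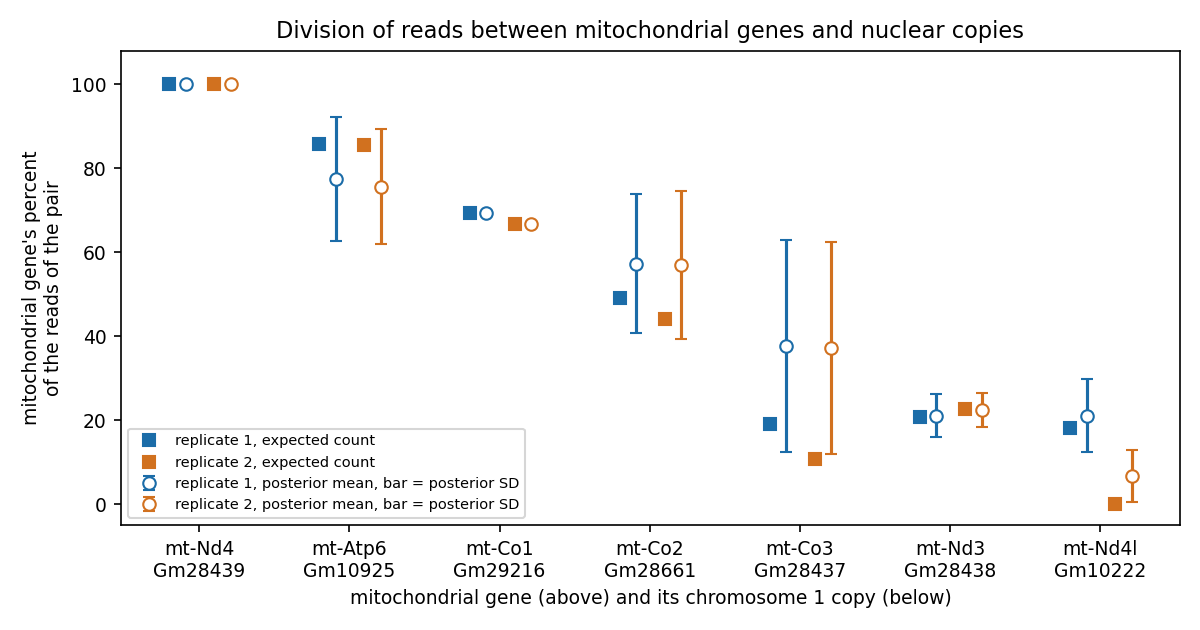
Percent of the reads of each pair of mitochondrial gene and chromosome 1 copy that was placed on the mitochondrial gene. Squares are estimated counts, open circles are posterior means with bars of 1 posterior SD, blue is replicate 1 and orange is replicate 2; mt-Nd4 lies at 100%, mt-Co1 has bars smaller than its symbol, and the bars of mt-Co3 span more than 25 percentage points on each side.

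Together the 10 copies held 107554 counts in replicate 1 and 124353 counts in replicate 2, which is 24.0% of the joint count of the mitochondrial genes and their copies in replicate 1 and 26.0% in replicate 2. With them the mitochondrial share of gene counts was 1.59% in replicate 1 and 1.32% in replicate 2. The levels were computed again with the counts of the copies added to the mitochondrial gene, over that gene's effective length. This sum was chosen after the values were seen, and it places every read of a pair on the mitochondrial gene. Whether any of these reads came from nuclear transcripts was not tested.

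With the copies added, mt-Co3 stood beside mt-Atp6, its neighbour in the genome. mt-Co3 then had 6101 TPM in replicate 1 and 5178 TPM in replicate 2, and mt-Atp6 had 6395 TPM in replicate 1 and 5656 TPM in replicate 2. mt-Co2 then had 2909 TPM in replicate 1 and 2491 TPM in replicate 2. mt-Co1 had 2229 TPM in replicate 1 and 1688 TPM in replicate 2 on this scale. The oxidase genes thus all stood higher than on the deposited scale, with mt-Co3 at rank 2 of 15. mt-Nd3 had 1258 TPM in replicate 1 and 1143 TPM in replicate 2. mt-Nd4l had 400.0 TPM in replicate 1 and 327.1 TPM in replicate 2, and mt-Nd4, which is read from the same mRNA, stood 2.31-fold higher in replicate 1 and 2.36-fold higher in replicate 2. mt-Nd2 and mt-Nd4 were nearly the same as on the deposited scale. The order on this scale was mt-Atp6 and mt-Co3, with overlapping ranges, then mt-Atp8, then mt-Rnr2 and mt-Co2, with overlapping ranges. After these came mt-Co1, mt-Cytb and mt-Nd1, each overlapping the next, then mt-Nd3, then mt-Nd4 and mt-Rnr1, with overlapping ranges. The lowest were mt-Nd2 and then mt-Nd6, mt-Nd4l and mt-Nd5, each overlapping the next.

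The mitochondrial subunits of the respiratory chain stood above the nuclear subunits of the same complexes as medians in TPM. The nuclear list held 71 genes of complexes I, III, IV and V, all measured, and the difference is given as the median of log2(TPM + 1) of the mitochondrial genes minus that of the nuclear genes, as a mean ± SD over the 2 libraries. In ATP synthase the 2 mitochondrial genes had a median of 5302 TPM in replicate 1 and 4686 TPM in replicate 2, against 418.0 TPM and 434.8 TPM for 15 nuclear genes in replicates 1 and 2, a difference of 3.54 ± 0.17. The highest nuclear gene there was Atp5b, the catalytic beta subunit, with 1583 TPM in replicate 1 and 1653 TPM in replicate 2, below both mt-Atp6 and mt-Atp8 in each library. Next by level were Atp5h, Atp5a1 and Atp5e. In complex III mt-Cytb stood above the 9 nuclear genes, whose median was 299.8 TPM in replicate 1 and 314.6 TPM in replicate 2, by 2.56 ± 0.27. Uqcrq was the highest of these, with 433.5 TPM in replicate 1 and 472.7 TPM in replicate 2, ahead of Uqcr10, Uqcrb and Uqcr11.

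The difference was smaller in complexes I and IV than in complexes III and V. In complex IV the 3 mitochondrial genes had a median of 1430.1 TPM in replicate 1 and 1099 TPM in replicate 2, against 596.2 TPM and 634.0 TPM for 11 nuclear genes in replicates 1 and 2, a difference of 1.03 ± 0.33. It was 2.13 ± 0.22 with the copies added. Cox6b1, which joins the monomers of the oxidase, was the highest nuclear gene, with 809.8 TPM in replicate 1 and 792.3 TPM in replicate 2, followed by Cox4i1, Cox6c and Cox6a1. In replicate 2 it stood above the deposited level of mt-Co3. In complex I the 7 mitochondrial genes had a median of 418.6 TPM in replicate 1 and 357.1 TPM in replicate 2, against 219.1 TPM and 218.0 TPM for 36 nuclear genes in replicates 1 and 2, a difference of 0.82 ± 0.16, or 1.23 ± 0.19 with the copies added. The mitochondrial and nuclear ranges of complex I overlapped. Ndufc1 was the highest of the nuclear genes, with 632.0 TPM in replicate 1 and 583.3 TPM in replicate 2, ahead of Ndufab1, Ndufa7 and Ndufb8. Over all 4 complexes the difference was 1.65 ± 0.47 on deposited values and 2.51 ± 0.18 with the copies added (13 mitochondrial and 71 nuclear genes).

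**Figure D4:**
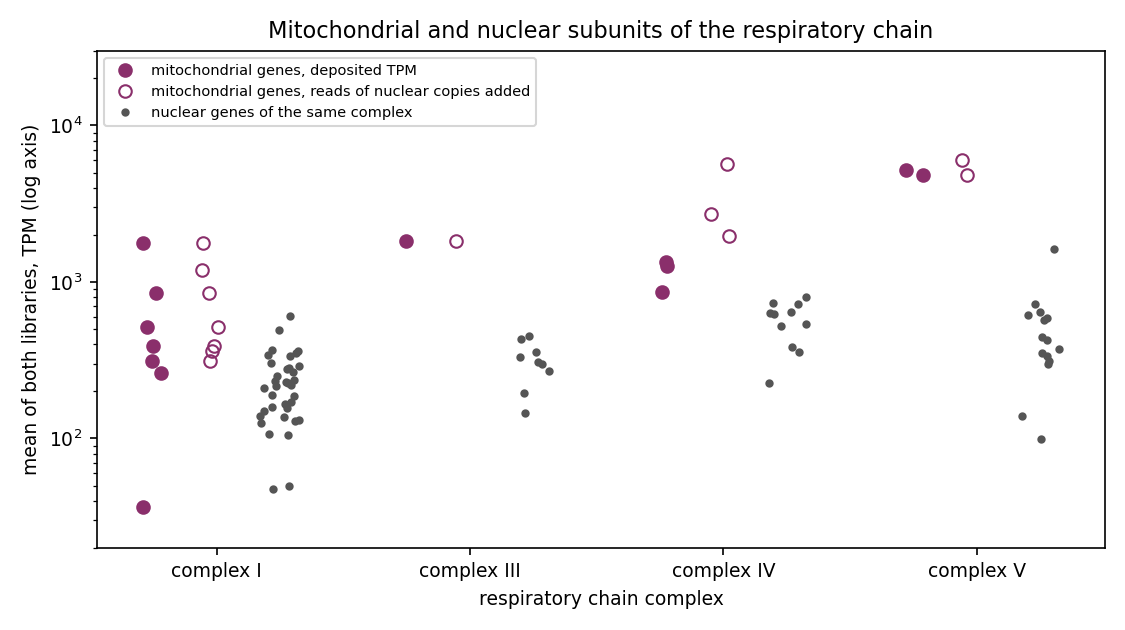
Mean TPM over both libraries (log axis) of mitochondrial genes (large filled points, deposited; open circles, with counts of nuclear copies added) and of nuclear genes (small points) by respiratory chain complex. In complexes III, IV and V every mitochondrial gene lies above every nuclear gene on these means. In complex IV the deposited mean of mt-Co3 is 866.9 TPM and that of Cox6b1 is 801.1 TPM. In complex I the 2 sets overlap, and the lowest filled point is mt-Nd4l, whose mean includes a 0.

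In the plot of subunits by complex, the deposited mt-Nd4l lies below the lowest nuclear complex I gene, and with the copies added it lies among the upper nuclear genes.

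The levels of all 15 longer mitochondrial genes were higher in replicate 1 than in replicate 2. The counts of both libraries were set against each other in a two-sided exact binomial test at TMM-scaled library sizes, with Benjamini-Hochberg adjustment over all 18939 genes tested. It compares these 2 libraries and not conditions, and the spread between single embryos cannot be known from 2 pools. For mt-Rnr1 the ratio of replicate 1 to replicate 2 was 1.26 (95% binomial interval 1.23 to 1.29, adjusted p = 1.00e-74 in the exact binomial test). For mt-Rnr2 it was 1.22 (1.21 to 1.23), for mt-Cytb 1.27 (1.25 to 1.29) and for mt-Nd1 1.10 (1.08 to 1.12). Thus the 7 genes without shared windows ranged only between 1.10 for mt-Nd1 and 1.27 for mt-Cytb, with mt-Atp8 at 1.15, mt-Nd5 at 1.14 and mt-Nd6 at 1.20. Of the 8 genes with shared windows, 3 lay in the same range, mt-Nd2 at 1.24, mt-Nd4 at 1.22 and mt-Atp6 at 1.16. Above it were mt-Co2 at 1.33 and mt-Co1 at 1.40. mt-Nd3 was at 1.03 (0.955 to 1.12, adjusted p = 0.638 in the exact binomial test), the one gene of the 15 that did not pass an adjusted p of 0.05. Among all genes at a mean of 1 TPM or more, 26.4% passed that adjusted p.

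The call of a difference between the pools needed 1.5-fold or more beside an adjusted p below 0.05, in genes with a mean of 1 TPM or more. mt-Co3 and mt-Nd4l were called, 2 of the 15, both higher in replicate 1, where 3.55% of the 15199 genes at 1 TPM or more were called and 1.41% were called and higher in replicate 1. The same genes were called by edgeR's negative binomial test, where 1.32% of genes were called. mt-Co3 had a ratio of 2.14 (2.08 to 2.20). Its deposited TPM intervals overlapped widely, from 670.7 to 4555 TPM in replicate 1 and from 551.9 to 4131 TPM in replicate 2. mt-Nd4l has no ratio, since it was listed at 0 in replicate 2. Its intervals also overlapped, from 19.4 to 138.7 TPM in replicate 1 and from 0.000926 to 65.2 TPM in replicate 2. On posterior mean counts mt-Co3 had a ratio of 1.22 and was not called, and mt-Nd4l had a ratio of 3.94 and was still called. Both are among the 5 genes with a posterior SD over 10% of the count in replicate 1. Requiring separate intervals beside the call left 0 of the 15, where 1.89% of genes were called. Of the 15 genes, 10 had separate intervals at any ratio, where 16.1% of genes did. The level of these intervals is not given in the sources used here.

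With the copies added, the ratios of the 15 genes lay closer together. For mt-Co3 the ratio was 1.20 (1.19 to 1.22) and for mt-Nd4l it was 1.25 (1.16 to 1.35). For mt-Nd3 it was 1.12 (1.08 to 1.17), for mt-Co2 1.19 (1.17 to 1.21) and for mt-Co1 1.35 (1.33 to 1.36). All 15 were then higher in replicate 1, between 1.10 and 1.35, 15 passed an adjusted p of 0.05 in the exact binomial test, and 0 were called. Without the copies added, 26.4% of all genes at 1 TPM or more passed that adjusted p and 3.55% were called. The median log2 ratio of the 15 genes was 0.29 alone and 0.27 with the copies added, while the median over all genes at 1 TPM or more was 0.00 and 50.3% of those genes were higher in replicate 1. Among the 7181 genes with a mean of at least 1000 counts, the log2 ratio had an SD of 0.141, and 1.78% had a ratio at or above 1.22, the median of the 15.

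**Figure D5:**
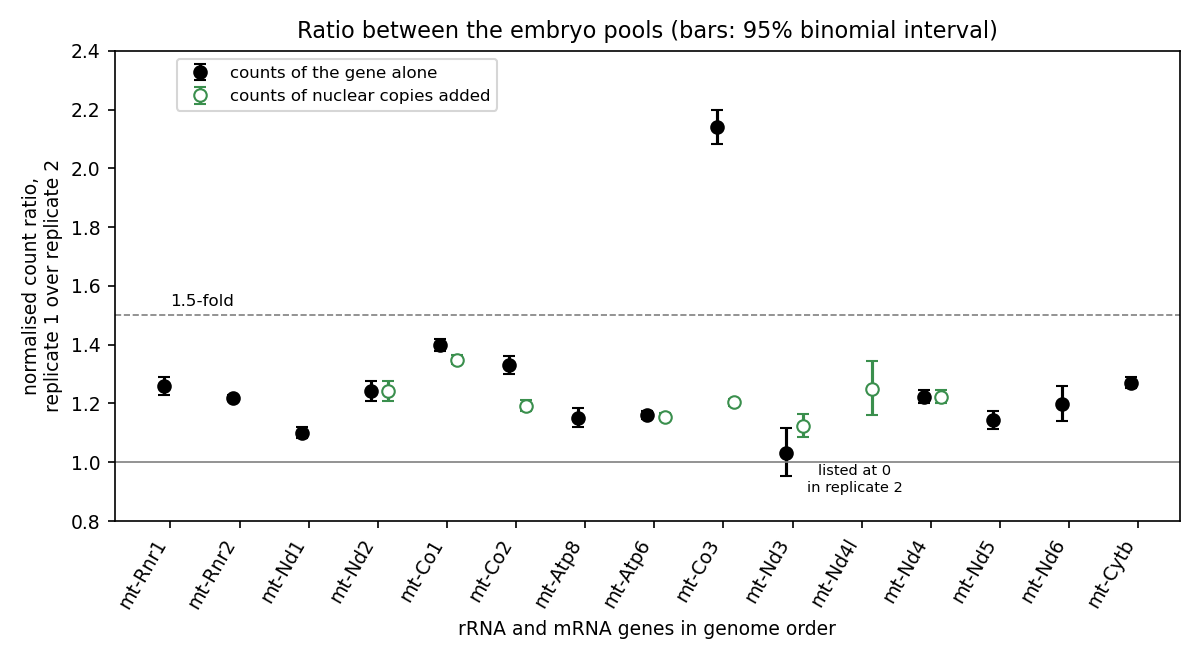
Ratio of normalised counts, replicate 1 over replicate 2, of the 15 longer mitochondrial genes in genome order, with 95% binomial intervals. Black points use the gene alone and green circles add its nuclear copies; alone, mt-Co3 lies at 2.14 and above the dashed line at 1.5-fold, and with copies added every circle lies between 1.12 and 1.35.

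In the plot of ratios between the pools, mt-Nd4l appears only with its copy added. The 6 chromosome 1 copies with counts each had a normalised count ratio above 1 as well. Their ratios were 1.25 for Gm29216, 1.15 for Gm28438, 1.13 for Gm10925, 1.09 for Gm28437, 1.08 for Gm28661 and 1.02 for Gm10222, the last with an adjusted p of 0.788 in the exact binomial test. On the TPM scale Gm10222 was not higher, with 331.9 TPM in replicate 1 and 332.2 TPM in replicate 2.

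The nuclear partners showed no such offset. Of the 71 nuclear respiratory chain genes, 33 were higher and 38 lower in replicate 1, with a median log2 ratio of -0.01, and 0 were called, where 3.55% of genes were called. Of 38 nuclear genes that transcribe, process, stabilise or replicate the mitochondrial genome or its RNA, 13 were higher and 25 lower in replicate 1, with a median log2 ratio of -0.03, and 0 were called. Tfam, which packages mitochondrial DNA and starts its transcription, had 61.7 TPM in replicate 1 and 60.2 TPM in replicate 2. Polrmt, the mitochondrial RNA polymerase, had 37.5 TPM in both replicates. Slirp, which with Lrpprc stabilises mitochondrial mRNAs, was the highest of these genes, with 229.9 TPM in replicate 1 and 230.6 TPM in replicate 2, and Lrpprc had 43.0 TPM in replicate 1 and 40.9 TPM in replicate 2. Slirp stood below every mitochondrial mRNA except mt-Nd4l in the deposited values. Among RNA processing genes, Hsd17b10, a subunit of the mitochondrial RNase P that cuts at tRNAs, had 105.9 TPM in replicate 1 and 106.8 TPM in replicate 2. Ssbp1, the mitochondrial single-strand DNA-binding protein, led the replication genes, with 153.0 TPM in replicate 1 and 143.3 TPM in replicate 2, and Polg, the mitochondrial DNA polymerase, had 28.3 TPM in replicate 1 and 30.5 TPM in replicate 2. The other 9 leading genes of their roles were Mterf3, Mterf4, Fastk, Grsf1, Fastkd2, Angel2, Rexo2, Rnaseh1 and Twnk, none called.

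Of the 5 midbrain genes, 1 (Otx2) was higher and 4 were lower in replicate 1, with a median log2 ratio of -0.26. En1 had 5.90 TPM in replicate 1 and 8.49 TPM in replicate 2, a ratio of 0.711 (adjusted p = 8.29e-05 in the exact binomial test), and the ratios of the other lower genes were 0.711 for En2, 0.836 for Pax7 and 0.996 for Dmbx1; 0 of the 5 were called. Markers of 4 other cell types had lower summed levels in replicate 1. Summed TPM of 5 mesenchyme genes was 1069 in replicate 1 and 1517 in replicate 2, with 0 of 5 higher in replicate 1. For 7 red cell genes it was 15443 in replicate 1 and 18078 in replicate 2 (0 of 7 higher in replicate 1), and for 5 endothelial genes it was 118.5 in replicate 1 and 139.4 in replicate 2 (1 of 5). For 5 macrophage genes it was 84.0 in replicate 1 and 109.1 in replicate 2 (0 of 5). None of these genes was called, where 3.55% of genes were called, and none was at 0. A call needed 1.5-fold, so smaller differences are not counted by it. The median log2 ratio was -0.45 for the mesenchyme genes, -0.15 for the red cell genes, -0.22 for the endothelial genes and -0.37 for the macrophage genes. Of 5 heart and muscle genes, 2 lay under 1 TPM. Their part, and that of the higher spike-in share of replicate 1, in the higher mitochondrial levels of replicate 1 was not tested.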

How the data were processed

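Each library was analysed from its deposited gene table. Per the file headers, whose column names are those of RSEM, the deposited expected counts are read numbers estimated for each gene, with decimals. The deposited TPM values, a posterior mean TPM and TPM interval bounds are the authors' abundances per effective length. The annotation was GENCODE M4 on mm10, per the deposited text files; the aligner is not given in the sources used here. The deposited transcript table was used for transcript names and lengths. Names, coordinates and sequences came from GENCODE M21 (42462 of 43346 identifiers matched), whose transcripts covered 101510 of the 103639 gene transcripts searched for shared windows of 100 bases. Tests and gene totals used annotated genes only, without spike-ins and without 26248 short features that have a number for a name.

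For tests, counts were rounded to whole numbers, 0.5 was added in log2 ratios, and genes with at least 10 counts summed were tested at TMM sizes (edgeR 4.0.16, R 4.3.3; factors 0.995 and 1.005). P-values of the exact binomial test measure only the spread expected from counting. edgeR's negative binomial test took its spread beyond counting from the same 2 libraries that it compared, treated as 1 group. DESeq2 1.42.0 size factors, total counts, edgeR's negative binomial test and leaving out each library were alternatives. Only the exact binomial test with its rule for calls was tested on simulated counts, which had no spread beyond counting and no shared reads. The genes named are the 37 members, the 4 highest genes of each role in the nuclear lists, and every nuclear gene with a shared window. The members, lists and rules were chosen with earlier results of these data known. Python 3.11.15, numpy 2.4.6, pandas 2.3.3, scipy 1.17.1 and biopython 1.88 were used.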

Additional observations from a re-analysis of the deposited data

How the results depend on the processing

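The median level of the 13 mRNAs was 973.3 TPM (mean of both libraries). It was 1296 TPM on posterior means and 1733 TPM with nuclear copies added, an alternative chosen after the data were seen, and 773.3 to 1173 TPM with 1 library left out. The median of the 2 rRNAs, 1833 TPM, was 2322 TPM rescaled over nuclear protein-coding genes, 2082 TPM per annotated length and 1666 to 2001 TPM with 1 library left out. The mRNA minus nuclear subunit difference of 1.65 was 2.51 with copies added and 1.32 to 1.99 with 1 library left out. The mitochondrial share of gene counts, 1.09%, was 1.46% with copies added and 0.979% to 1.21% with 1 library left out. The 2 calls between the pools became 1 on posterior mean counts, 0 with separate TPM intervals and 0 with copies added; they were 2 under DESeq2 size factors, total counts, no filter on low counts and edgeR's negative binomial test. The median ratio of the 15 genes was 1.22 under TMM and DESeq2 sizes and 1.21 under total counts. The number of genes with a posterior SD over 10% of the count was 4 to 5 with 1 library left out. tRNA values were 0 throughout. No paired analysis was possible because the libraries form 1 group. The 2 pools give no measure of variation between embryos and no reads were used here to place the shared reads.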
